A study of Homo sapiens with 1536 samples.

Results

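The compounds described here damage DNA or block its repair, and they were given to a pool of 5 human breast cancer cell lines. They are the nitrogen mustards Bendamustine, Chlorambucil and Cyclophosphamide, the triazenes Temozolomide and Dacarbazine, the platinum compound Cisplatin, and the repair inhibitors KU55933, Veliparib and Lomeguatrib. The 9 compounds were chosen by name and class, not by response, from a collection of 180, of which 6 were not used here because the study left them out for low read counts. The study used QMAP-Seq, in which every cell carries a barcode for its line and an sgRNA, and the barcodes of all cells of a well are sequenced together after 72 hours of treatment. Each compound was given at 10, 100, 1000 and 10000 nM in 2 replicate wells on different plates, which makes 72 member wells, and 96 wells held the vehicle DMSO. By the order of the samples, Veliparib and Lomeguatrib lay on plates 9 to 16 and the other members on plates 1 to 8. The pool held ZR-75-1, an estrogen receptor positive line, SKBR3, a HER2 amplified line, and the triple negative lines BT-20, HCC-38 and MDA-MB-231. Every well, DMSO wells included, held cells with doxycycline-inducible Cas9 that had been in 100 ng/mL doxycycline for 7 days before treatment. Each line was a mixture of 12 populations, with sgNT as the control sgRNA or with an sgRNA against a gene of protein folding stress, oxidative stress, autophagy or transport (HSF1, HSF2, ERN1, XBP1, ATF3, ATF4, ATF6, NFE2L2, KEAP1, ATG7 or SLC35F2). The lines shared a well and its medium, and a barcode count cannot tell fewer divisions from more deaths.

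Alkylating compounds differ in the group that they attach to DNA. Nitrogen mustards carry a pair of chloroethyl arms and can crosslink the strands. Chlorambucil and Bendamustine both carry their mustard group on an aromatic ring system with a butanoic acid chain and differ in that ring system, a benzene in Chlorambucil and a benzimidazole in Bendamustine. Cyclophosphamide and its isomer Ifosfamide are prodrugs that are activated by cytochrome P450 enzymes, chiefly in the liver. Temozolomide and Dacarbazine give rise to the same methylating intermediate, Temozolomide by spontaneous breakdown in water and Dacarbazine after demethylation by cytochrome P450. Cisplatin crosslinks neighbouring guanines. KU55933 inhibits ATM, the kinase that signals double strand breaks, Veliparib inhibits PARP, which senses single strand breaks, and Lomeguatrib inactivates MGMT, the protein that takes methyl groups off guanine.

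A line is read out only through the count of its barcode, and since the results below turn on differences between lines, the 5 designed barcodes are shown. All bases are in capitals because the whole run identifies the line, and any pair of these barcodes differs at 4 or more of its 8 positions.
ZR-75-1: ATCACTGG
SKBR3: CGGTGACC
HCC-38: TACAGAGG
MDA-MB-231: TAACAGTT
BT-20: ATTGTCAA

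The authors turned barcode counts into cell numbers with a standard curve of 5 spiked-in populations of a human embryonic kidney line in each well, and gave them in percent of the median DMSO well. The relative cell number of a line is here the mean over its sgRNAs, 12 in each line but 10 in ZR-75-1, and changes are differences of its log2. Member wells held 182637 to 1596040 reads and DMSO wells 155067 to 986006. The single DMSO wells ranged from 64.3% to 148.8% in ZR-75-1, the widest range, and from 84.3% to 136.8% in HCC-38. The SD between wells of the same compound and dose was 0.15 (BT-20) to 0.21 (ZR-75-1) on the log2 scale. Each SE below comes from a fit that pools this spread over all compounds and DMSO. It does not show how closely the 2 wells of a compound lay. Some wells also held many reads in barcode pairs that were never made, such as the barcode of the kidney line with an sgRNA of the cancer lines. These reads had a median share of 0.183% in DMSO wells and a highest share of 0.924%, but a median of 2.47% with Bendamustine, 2.18% with Veliparib and 2.13% with Temozolomide. By the order of the samples, these 3 compounds lay in the first column of their plates. Results are therefore also given with the estimated swapped reads taken off every barcode pair, an alternative that was chosen after seeing the data. No DMSO well lay in the first column, so the DMSO wells as a reference hold no variation particular to it. Cyclophosphamide, Dacarbazine and Cisplatin lay elsewhere on the rim, and by their titles the DMSO wells lay inside it.

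**Figure D1:**
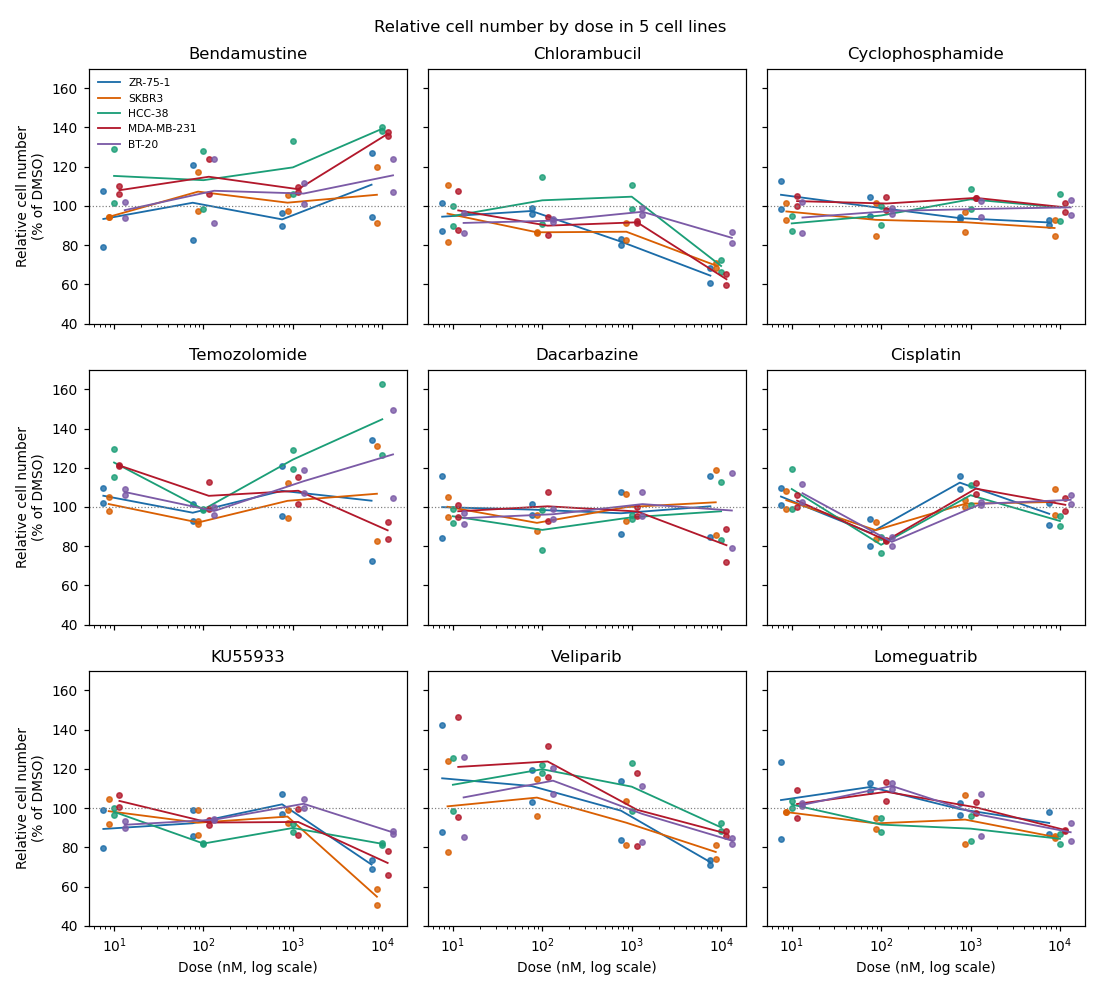
Relative cell number (percent of DMSO, vertical axis) against dose (nM, log scale), 1 panel for each of the 9 compounds. Points are the 2 replicate wells, lines join their means, colours are the cell lines, and the lines are shifted sideways for clarity. Chlorambucil and KU55933 drop between 1000 and 10000 nM, the means of Cyclophosphamide and Cisplatin at 10000 nM lie between 88.7% and 103.7%, and those of Temozolomide between 88.1% and 144.7%.

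At 10000 nM, Chlorambucil was lower than DMSO in all 5 lines, KU55933 in 4, Veliparib in 3 and Dacarbazine in 1, while Bendamustine and Temozolomide were higher in 2 lines each. Over all doses, 16 of 180 combinations of member, dose and line were lower than DMSO and 6 were higher at an adjusted p below 0.05 (limma, Benjamini-Hochberg over all compounds). Over all compounds, 32.5% of combinations were lower and 1.55% were higher, so that the members' share of lower calls was below the background and that of higher calls above it. All 6 higher calls were with Bendamustine or Temozolomide, both in the first plate column. None of them passed with the swapped reads taken off. From 10 to 10000 nM, a contrast of wells in the same plate position, 9 of 45 combinations of member and line fell and none rose. Over all compounds, some of which had a lower dose range, 59% fell and 0.460% rose. The 9 were 4 with Chlorambucil, 2 with KU55933, 2 with Veliparib and 1 with Temozolomide.

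Chlorambucil lowered every line at 10000 nM, and BT-20 least. Its replicate wells held 65.3% and 59.9% of DMSO in MDA-MB-231, 60.8% and 68.1% in ZR-75-1, 72.4% and 66.3% in HCC-38, 68.4% and 70.9% in SKBR3, and 80.9% and 86.6% in BT-20. Both wells lay below every DMSO well in HCC-38 and MDA-MB-231, 1 of the 2 did in SKBR3 and in ZR-75-1, and BT-20 stayed inside the DMSO range. The log2 change against DMSO was -0.69 ± 0.13 (SE, n = 2 wells) in MDA-MB-231 with an adjusted p of 9.72e-07 (limma), -0.65 ± 0.15 in ZR-75-1, -0.55 ± 0.11 in HCC-38 and -0.52 ± 0.14 in SKBR3, the last not past the threshold without replicate 1 (-0.47). For BT-20 it was -0.27 ± 0.11, with an adjusted p of 0.0447 (limma), and this call was lost in 8 of 13 alternatives. At lower doses no line passed, and the lowest mean there was 81.8% ± 2.23 (SD, n = 2), in ZR-75-1 at 1000 nM. From 10 to 10000 nM the cell number fell by 0.64 in MDA-MB-231, 0.55 in ZR-75-1, 0.45 in HCC-38 and 0.45 in SKBR3 on the log2 scale, and the change in BT-20 was -0.12 (95% confidence interval -0.42 to 0.18). With sgNT alone none of these 4 falls passed and the change in ZR-75-1 was 0.11, and without replicate 1 MDA-MB-231 alone passed.

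Bendamustine passed no test as lower than DMSO in any line or dose as deposited, where its fitted levels ran from 91.7% (ZR-75-1 at 10 nM) to 137.6%. Its 10000 nM wells held 140.4% and 138.3% in HCC-38, 137.5% and 135.9% in MDA-MB-231, 127.1% and 94.5% in ZR-75-1, 123.8% and 107.3% in BT-20, and 119.9% and 91.4% in SKBR3. Both wells lay above every DMSO well in HCC-38 and inside the range elsewhere. HCC-38 and MDA-MB-231 were higher than DMSO by 0.46 ± 0.11 and 0.44 ± 0.13 on the log2 scale (SE, n = 2 wells, adjusted p = 0.000236 and 0.00342, limma). These wells had 4.47% and 3.60% of their reads in pairs that were never made. With the estimated swapped reads taken off, the fitted level was 99.3% in MDA-MB-231, 85.3% in BT-20, 96.6% in HCC-38, 77.9% in ZR-75-1 and 77.4% in SKBR3, and the last 2 were then lower than DMSO (adjusted p = 0.0394 and 0.0139, limma). The same 2 lines were already lower in this way at 10 nM, with 76.2% in ZR-75-1 and 79.3% in SKBR3 (adjusted p = 0.0225 and 0.0293, limma), as were BT-20 at 10 nM (81.7%) and ZR-75-1 at 1000 nM (78.5%), so that these calls did not follow the dose.

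The aromatic mustards differed at 10000 nM in all 5 lines as deposited. Bendamustine was above Chlorambucil by 1.13 on the log2 scale in MDA-MB-231 (95% confidence interval 0.76 to 1.49), by 1.01 (0.69 to 1.32) for HCC-38, 0.77 in ZR-75-1 (0.35 to 1.18), 0.59 in SKBR3 (0.22 to 0.96) and 0.46 in BT-20 (0.16 to 0.76). The largest adjusted p was 0.0458, over the 720 tests of 36 pairs of members at 4 doses in 5 lines (limma). With the swapped reads taken off, the differences were 0.66, 0.47, 0.26, 0.13 and 0.01 in the same order, and MDA-MB-231 alone passed (adjusted p = 0.0446, limma). At the lower doses this pair did not pass in any line.

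Cyclophosphamide passed no test against DMSO at any dose. At 10000 nM its wells held 84.4% and 93.1% in SKBR3, 90.2% and 92.9% in ZR-75-1, 96.98% and 101.5% in MDA-MB-231, and 92.4% and 106.2% in HCC-38, with a mean of 99.3% ± 5.27 (SD, n = 2) in BT-20. All lay inside the range of the DMSO wells. The log2 changes against DMSO ran from -0.18 (95% confidence interval -0.44 to 0.09, SKBR3) to -0.02 (-0.24 to 0.19, BT-20). Ifosfamide held 84.8% to 110.2% at this dose. It lay on plates 9 to 16 and Cyclophosphamide on plates 1 to 8, so the isomers never shared a plate. The isomers differed by -0.06 to 0.09 on the log2 scale at 10000 nM, with 95% confidence intervals that reached from -0.43 to 0.47 at the widest, and no difference between them passed at any dose.

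Temozolomide held the lines apart at 10000 nM. Its wells held 162.9% and 126.5% in HCC-38, 149.2% and 104.4% in BT-20, 131.02% and 82.5% in SKBR3, 133.9% and 72.5% in ZR-75-1, and 92.5% and 83.7% in MDA-MB-231. Replicate 1 was above replicate 2 by a mean of 0.52 on the log2 scale, and HCC-38 was the highest line in both. The replicate 1 wells of HCC-38 and BT-20 lay above every DMSO well and the rest inside the range. Against DMSO, HCC-38 was higher by 0.50 ± 0.11 and BT-20 by 0.31 ± 0.11 (SE, n = 2 wells, adjusted p = 4.81e-05 and 0.0156, limma), and without replicate 1 neither passed (0.31 and 0.06). The 2 wells themselves lay 0.36 apart in HCC-38 and 0.52 apart in BT-20 on the log2 scale. HCC-38 was also higher at 10 nM (129.8% and 115.5%) and at 1000 nM (119.4% and 128.9%), but not at 100 nM. By the exact permutation test, adjusted over the 180 member tests alone, these calls did not pass (adjusted p = 0.103 and 0.0863). Their unadjusted p was 0.0126 and 0.00863 by that test, and 0.0168 and 0.0106 by limma. With the swapped reads taken off they did not pass either, when the fitted levels were 99.7% and 105.1%. With those reads taken off, the level at 10000 nM was 108.1% in HCC-38, 98.4% in BT-20, 81.5% in SKBR3, 76.2% in ZR-75-1 and 68.7% in MDA-MB-231, and ZR-75-1 and MDA-MB-231 were then lower than DMSO. From 10 to 10000 nM, MDA-MB-231 fell by 0.46 on the log2 scale (adjusted p = 0.0226, limma), from 121.3% and 121.02% at 10 nM, and the call was lost without replicate 2 (-0.39) and with sgNT alone (-0.30).

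Dacarbazine was lower than DMSO in MDA-MB-231 alone. Its 10000 nM wells held 72.02% and 89.01% in MDA-MB-231, 84.8% and 115.9% in ZR-75-1, 78.9% and 117.5% in BT-20, 83.1% and 112.5% in HCC-38, and 85.95% and 118.8% in SKBR3. Replicate 1 was below replicate 2 by a mean of 0.45 on the log2 scale, and MDA-MB-231 was the lowest line in both. The replicate 1 wells of MDA-MB-231, BT-20 and HCC-38 lay below every DMSO well, and all replicate 2 wells inside the range. The change of MDA-MB-231 against DMSO was -0.33 ± 0.13 (SE, n = 2 wells, adjusted p = 0.0355, limma), which did not pass without replicate 1 (-0.18), with sgNT alone, by edgeR or by the exact permutation test. The last 2 were adjusted over the 180 member tests alone. The unadjusted p was 0.0061 by the exact permutation test and 0.0116 by limma. The change from 10 to 10000 nM, -0.29 (95% confidence interval -0.65 to 0.08), did not pass.

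Cisplatin passed no test against DMSO at its highest dose. At 10000 nM its wells held 90.4% and 95.3% in HCC-38, 102.2% and 90.9% in ZR-75-1, 97.8% and 104.4% in MDA-MB-231, 96.1% and 109.02% in SKBR3, and 101.3% and 105.98% in BT-20. All lay inside the range of the DMSO wells. The log2 changes against DMSO ran from -0.13 (HCC-38) to 0.04 (BT-20), and the lowest bound of a 95% confidence interval was -0.36. At 100 nM it was lower than DMSO in HCC-38 (84.8% and 76.6%) and BT-20 (84.5% and 79.96%), by 0.33 and 0.29 on the log2 scale (adjusted p = 0.0134 and 0.0238, limma). Neither call passed by the exact permutation test, adjusted over the 180 member tests alone (adjusted p = 0.0663 and 0.0863). The unadjusted p was 0.00442 and 0.00863 by that test, and 0.00413 and 0.00762 by limma. At 1000 nM the wells held 99.9% to 115.6% and no line passed, so that the lower values at 100 nM did not continue with dose.

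KU55933 lowered SKBR3 most. Its wells at 10000 nM held 58.8% and 50.8% in SKBR3, 73.5% and 68.9% in ZR-75-1, 78.3% and 65.8% in MDA-MB-231, 82.2% and 81.3% in HCC-38, and 86.7% and 88.5% in BT-20. Both wells lay below every DMSO well in SKBR3, HCC-38 and MDA-MB-231, and inside the range in ZR-75-1 and BT-20. The log2 change against DMSO was -0.87 ± 0.14 in SKBR3 (SE, n = 2 wells, adjusted p = 9.85e-10, limma), -0.50 ± 0.15 in ZR-75-1, -0.49 ± 0.13 in MDA-MB-231 and -0.31 ± 0.11 in HCC-38, all past the threshold, and -0.20 ± 0.11 in BT-20, which did not pass. The HCC-38 call was lost without either replicate, and the MDA-MB-231 call without replicate 2 (-0.37). From 10 to 10000 nM, SKBR3 fell by 0.84 and MDA-MB-231 by 0.53 on the log2 scale, the latter not past the threshold without replicate 2 (-0.45). HCC-38 was also lower than DMSO at 100 nM (82.1% and 81.8%, adjusted p = 0.0239, limma), and not at 1000 nM. The 100 nM call did not pass by the exact permutation test, adjusted over the 180 member tests alone (adjusted p = 0.0783). Its unadjusted p was 0.00652 by that test and 0.00764 by limma.

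KU60019, another ATM inhibitor, went lower than KU55933 at the same dose. At 10000 nM it left 30.5% and 37.96% in SKBR3, 40.8% and 43.3% in ZR-75-1, 43.7% and 49.5% in MDA-MB-231, 55.7% and 67.1% in HCC-38, and 54.03% and 60.7% in BT-20. KU55933 was above it by 0.76 in ZR-75-1 (95% confidence interval 0.35 to 1.17), 0.68 in SKBR3 (0.31 to 1.06), 0.61 in BT-20 (0.31 to 0.91) and 0.62 in MDA-MB-231 (0.26 to 0.99) on the log2 scale, with adjusted p between 0.00415 and 0.0117 over 60 tests of 3 pairs (limma). In HCC-38 the difference was 0.42 (0.11 to 0.73, adjusted p = 0.0891, limma), and it passed with the swapped reads taken off (0.43). No difference passed at the lower doses. KU55933 lay on plates 1 to 8 and KU60019 on plates 9 to 16, so the ATM inhibitors never shared a plate. Without replicate 1, none of the 60 tests passed by limma and 8 had an unadjusted p below 0.05.

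Veliparib was lowest in ZR-75-1. Its wells at 10000 nM held 73.6% and 71.2% in ZR-75-1, 73.9% and 81.4% in SKBR3, 84.97% and 81.9% in BT-20, 88.2% and 85.9% in MDA-MB-231, and 88.2% and 92.1% in HCC-38. All lay inside the range of the DMSO wells. The log2 change against DMSO passed in ZR-75-1 (-0.48 ± 0.15, SE, n = 2 wells, adjusted p = 0.00553, limma), SKBR3 (-0.37 ± 0.14) and BT-20 (-0.27 ± 0.11), and none of the 3 passed without replicate 1. With the swapped reads taken off, all 5 lines were lower, with fitted levels from 66.9% in ZR-75-1 to 82.6% in HCC-38. At 10 nM the replicates stood apart, with 77.5% to 98.3% over the lines in replicate 1 and 124.2% to 146.6% in replicate 2. The estimated swapped reads were 3.37% and 27.7% of these wells, and with them taken off the wells held 76.8% to 96.6% and 93.5% to 115.4%. The falls from 10 to 10000 nM, 0.63 in ZR-75-1 and 0.44 in MDA-MB-231 on the log2 scale, did not pass without replicate 2 (-0.26 and -0.11).

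Olaparib, another PARP inhibitor, held 50.3% and 62.8% in SKBR3, 63.5% and 68.3% in HCC-38, 63.6% and 79.3% in MDA-MB-231, 69.7% and 70.6% in ZR-75-1, and 78.2% and 92.5% in BT-20 at 10000 nM. Veliparib minus Olaparib was 0.46 in SKBR3 (95% confidence interval 0.09 to 0.84), 0.45 in HCC-38 (0.14 to 0.77), 0.05 in ZR-75-1 (-0.37 to 0.46), -0.03 in BT-20 (-0.33 to 0.27) and 0.29 in MDA-MB-231 (-0.07 to 0.66) on the log2 scale. None passed, and the lowest adjusted p was 0.0575 (limma, HCC-38).

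Lomeguatrib passed no test against DMSO, between doses or between lines. At 10000 nM its wells held 86.8% and 81.8% in HCC-38, 85.98% and 84.6% in SKBR3, 92.4% and 83.01% in BT-20, 88.5% and 89.04% in MDA-MB-231, and 86.6% and 98.2% in ZR-75-1. The replicate 2 well of HCC-38 lay below every DMSO well and all others inside the range. The log2 changes against DMSO ran from -0.26 (95% confidence interval -0.49 to -0.04, adjusted p = 0.0602, limma, HCC-38) to -0.13 (-0.42 to 0.17, ZR-75-1).

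**Figure D2:**
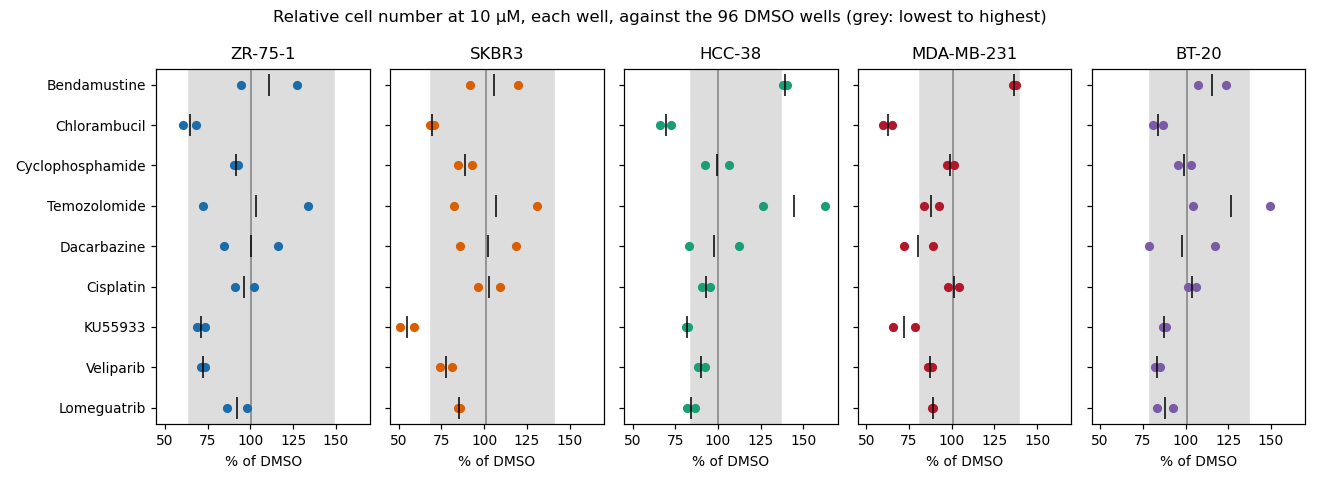
Relative cell number at 10000 nM (10 µM), in percent of DMSO, for the 2 wells (points) and their mean (tick) of each of the 9 compounds, 1 panel per cell line. The grey band runs from the lowest to the highest of the 96 DMSO wells. Chlorambucil in HCC-38 and MDA-MB-231 and KU55933 in SKBR3, HCC-38 and MDA-MB-231 have both wells below the band, and Bendamustine in HCC-38 has both above it.

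**Figure D3:**
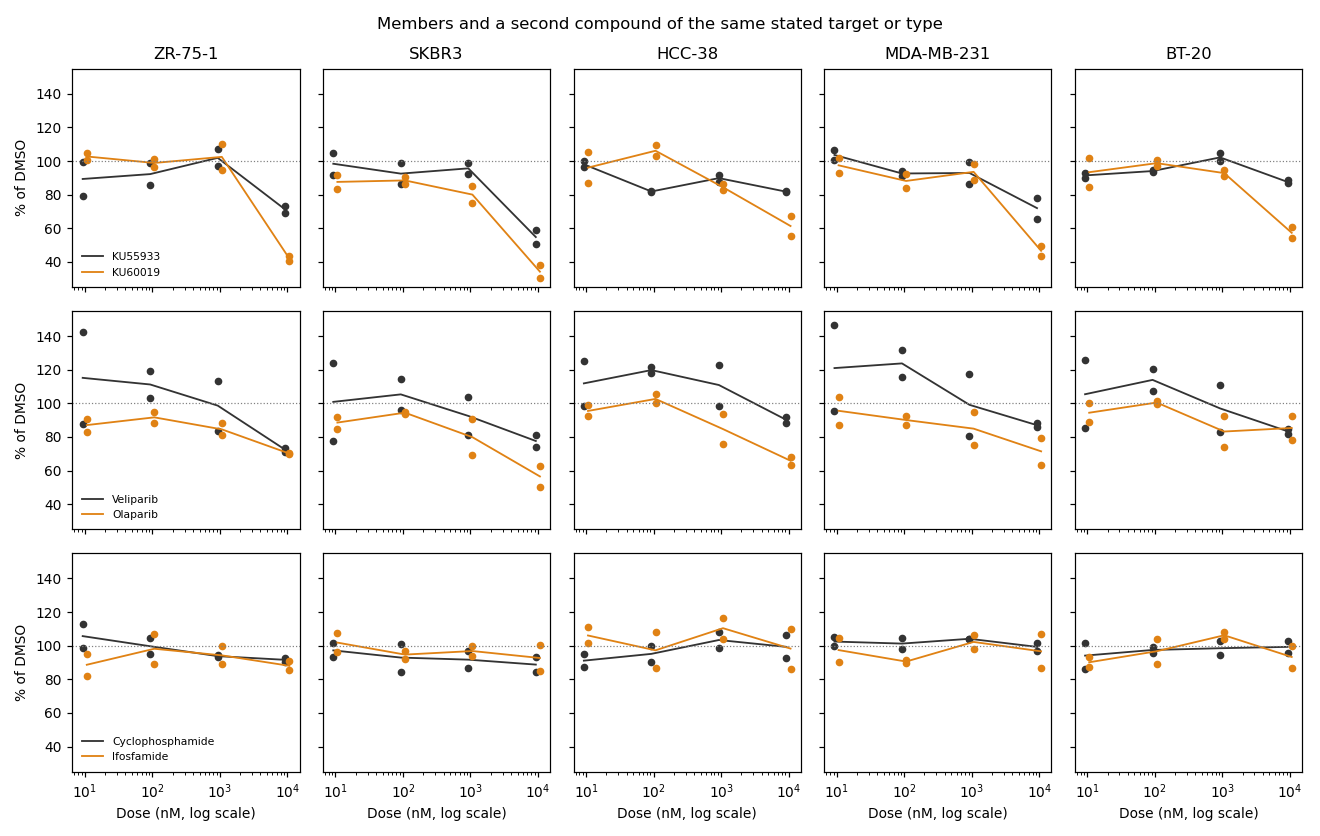
Relative cell number (percent of DMSO) against dose (nM, log scale) for KU55933 and KU60019, Veliparib and Olaparib, and Cyclophosphamide and Ifosfamide, 1 column per cell line. Points are wells and lines join the means of 2 wells. KU60019 ends below KU55933 in every line at 10000 nM, while the wells of Cyclophosphamide and Ifosfamide overlap.

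The lines were next compared inside the same well, which takes out what a whole well shares. The log2 value of a line minus the mean of the other 4 lines at 10000 nM was contrasted with the same difference in the DMSO wells. The values of the lines of a compound balance out, so a low line raises the values of the others and their calls are not independent. Of 45 combinations of member and line, 5 were lower than the other lines and 7 were higher. Over all compounds at their highest dose, 24.9% were lower and 31.5% were higher, so that the members' shares were below the background in both directions. The median relative cell number over all compounds at that dose was 71.4% in BT-20, 66.1% in HCC-38 and 57.1% in MDA-MB-231. It was 55.9% in SKBR3 and 50.6% in ZR-75-1. A high BT-20 and a lower SKBR3 were thus also the order of these medians, and not particular to the members.

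By the mean of 2 wells, MDA-MB-231 was the lowest line for both triazenes, but not in every well. With Temozolomide it stood at -0.64 and -0.18 in replicates 1 and 2, a mean of -0.41 ± 0.08 (SE, adjusted p = 2.55e-06, limma), and with Dacarbazine at -0.21 and -0.39, a mean of -0.30 ± 0.08 (adjusted p = 0.000649, limma). In replicate 2 of Temozolomide, ZR-75-1 (-0.43) and SKBR3 (-0.19) stood lower than MDA-MB-231. The triazenes share their DMSO wells in this contrast. At 10 nM, MDA-MB-231 stood at 0.13 and 0.16 with Temozolomide and at 0.12 and -0.10 with Dacarbazine. Against those 10 nM wells in place of DMSO, an alternative chosen after seeing the data, the values at 10000 nM were -0.56 and -0.31, both past the threshold. With the swapped reads taken off they were -0.39 and -0.30, both past it. The Temozolomide call was lost without replicate 1 (-0.19), the Dacarbazine call without replicate 2 (-0.20), and both with sgNT alone. Temozolomide also had HCC-38 above the other lines by 0.47 ± 0.09 and BT-20 by 0.23 ± 0.06, where Dacarbazine gave 0.04 in each. Against the 10 nM wells, HCC-38 stood at 0.31 and BT-20 at 0.29 with Temozolomide (adjusted p = 0.035 and 0.00325, limma), and at 0.08 and 0.09 with Dacarbazine. Temozolomide lay in the first plate column and Dacarbazine in column 6, so compound and position cannot be told apart here.

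Among the mustards, Chlorambucil left BT-20 above the other lines, by 0.28 and 0.39 in the replicates (mean 0.33 ± 0.06, SE, adjusted p = 4.63e-07, limma). It had MDA-MB-231 below them, at -0.11 and -0.28 (mean -0.19 ± 0.08), a call that was lost in 6 of 12 alternatives. Bendamustine had MDA-MB-231 at 0.23 ± 0.08, HCC-38 at 0.26 ± 0.09 and SKBR3 at -0.24 ± 0.08, and none of these passed against its own 10 nM wells (0.11, 0.04 and -0.13) or without replicate 2 (0.12, 0.16 and -0.16). Cyclophosphamide, Cisplatin, Veliparib and Lomeguatrib had no line past the threshold, the farthest being ZR-75-1 with Veliparib at -0.22 (95% confidence interval -0.43 to -0.01, adjusted p = 0.0749, limma).

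KU55933 placed SKBR3 below the other lines by -0.43 and -0.56 in the replicates (mean -0.50 ± 0.08, SE, adjusted p = 1.44e-08, limma) and BT-20 above them by 0.26 and 0.43 (mean 0.34 ± 0.06). The BT-20 call held in all 12 alternatives, and the SKBR3 call in all but sgNT alone (-0.33). HCC-38 stood at 0.21 ± 0.09, which was lost in 7 of 12 alternatives, among them leaving out either replicate. KU60019, which shares the DMSO wells, had SKBR3 at -0.58 ± 0.08, BT-20 at 0.35 ± 0.06 and HCC-38 at 0.46 ± 0.09. Olaparib had SKBR3 at -0.36 ± 0.08 and BT-20 at 0.38 ± 0.06, where Veliparib gave -0.09 and 0.03.

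**Figure D4:**
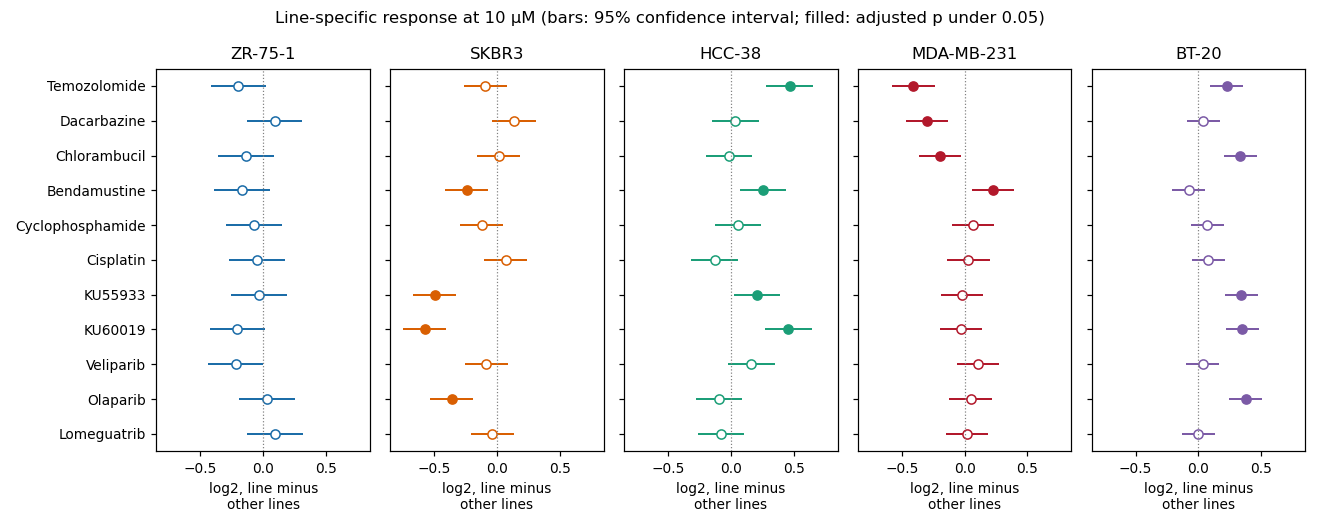
Line-specific response at 10000 nM (10 µM), as log2 relative cell number of a line minus the mean of the other 4 lines of the well, relative to DMSO wells. Points are estimates over 2 wells, bars are 95% confidence intervals, and filled points have an adjusted p below 0.05. Temozolomide, Dacarbazine and Chlorambucil lie to the left of 0 in MDA-MB-231, and KU55933, KU60019 and Olaparib lie to the left in SKBR3 and to the right in BT-20.

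All pairs of members were compared at matched doses. Veliparib and Lomeguatrib shared no plate with the other members. Of the 720 tests, 47 passed, of which 41 were at 10000 nM, 5 at 100 nM, 1 at 1000 nM and none at 10 nM. Bendamustine or Temozolomide was a partner in 32 of the 41. Chlorambucil minus Temozolomide was -1.05 in HCC-38 on the log2 scale (95% confidence interval -1.36 to -0.74). Bendamustine was above KU55933 by 0.94 in SKBR3, 0.93 in MDA-MB-231 and 0.77 in HCC-38, and above Dacarbazine by 0.77 in MDA-MB-231. Temozolomide was above KU55933 by 0.93 in SKBR3 and 0.81 in HCC-38, and above Lomeguatrib by 0.77 in HCC-38. In SKBR3, Cisplatin was above KU55933 by 0.90 (0.53 to 1.28) and Dacarbazine by 0.89 (0.51 to 1.26).

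With the swapped reads taken off, 4 of the 47 differences passed. These were Bendamustine over Chlorambucil in MDA-MB-231 (0.66), Chlorambucil under Temozolomide in HCC-38 (-0.63), and Dacarbazine (0.85) and Cisplatin (0.83) over KU55933 in SKBR3. At 10000 nM, differences without Bendamustine or Temozolomide that no longer passed kept most of their size. KU55933 minus Lomeguatrib in SKBR3 was -0.64 both ways, and Chlorambucil minus Cisplatin in MDA-MB-231 was -0.69 as deposited and -0.62. Chlorambucil minus Dacarbazine in ZR-75-1 was -0.62 and -0.58, and Cyclophosphamide minus KU55933 in SKBR3 was 0.70 and 0.60. At 100 nM, the differences of Cisplatin and KU55933 from Veliparib that had passed became smaller. In HCC-38 the fitted level there was 118.3% with Veliparib as deposited and 95.7% with the swapped reads taken off. With Cisplatin it was 79.6% and 80.4%. When each member was taken relative to its own 10 nM wells, none of the 540 tests at the 3 higher doses passed by limma, and 41 had an unadjusted p below 0.05. This contrast has a larger error, and Cisplatin over KU55933 in SKBR3, for example, was 0.83 ± 0.27 (SE) in place of 0.90 ± 0.19. Bendamustine over Chlorambucil in MDA-MB-231 was 0.98 ± 0.26 in place of 1.13 ± 0.19, while Temozolomide over Dacarbazine in HCC-38 was 0.21 ± 0.23 in place of 0.57 ± 0.16. As deposited, Temozolomide and Dacarbazine differed past the threshold at 10000 nM in HCC-38 (0.57, 95% confidence interval 0.26 to 0.88) and in no other line. Chlorambucil minus KU55933 did not pass in any line and ran from -0.24 (-0.55 to 0.08, HCC-38) to 0.35 (-0.02 to 0.72, SKBR3).

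When the mustards, the triazenes and Cisplatin were each set against each repair inhibitor, 6 of 180 tests passed. In SKBR3 at 10000 nM, KU55933 lay below the mean of the triazenes by 0.91, below Cisplatin by 0.90 and below the mean of the mustards by 0.66 on the log2 scale (adjusted p = 8.43e-06, 0.000201 and 0.00134, limma, n = 2 wells per compound). In HCC-38 the triazenes were above KU55933 by 0.53 and above Lomeguatrib by 0.48. At 100 nM Cisplatin minus Veliparib was -0.57 in HCC-38. The contrasts with Lomeguatrib and Veliparib were between wells that shared no plate. With the swapped reads taken off, the triazenes (0.70) and Cisplatin (0.83) over KU55933 in SKBR3 passed and the other 4 did not.

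**Figure D5:**
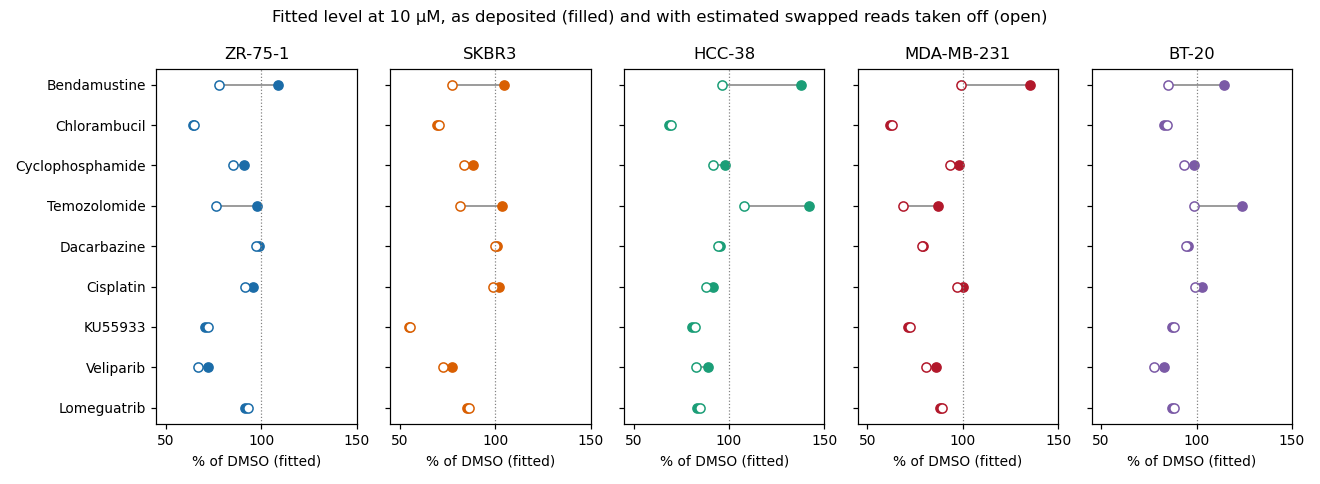
Fitted relative cell number at 10000 nM (10 µM), in percent of DMSO, for the 9 compounds in the 5 lines, as deposited (filled points) and with the estimated swapped reads taken off every barcode pair (open points). Bendamustine and Temozolomide move down by the most in every line, while Chlorambucil, KU55933, Dacarbazine and Lomeguatrib hardly move.

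The area under the dose curve, which is 300 for a compound without effect at any dose, ranged over the lines from 256.2 to 289.7 for Chlorambucil and from 261.7 to 285.8 for KU55933. It ranged from 296.8 to 360.1 for Bendamustine and from 299.4 to 356.6 for Temozolomide. The median over all compounds was between 256.7 (ZR-75-1) and 276.6 (HCC-38).

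No sgRNA changed the response of its line past the threshold. Each sgRNA was set against the mean of the other sgRNAs of its line over the 4 doses. For the members no test passed by limma, where 0.386% of the tests were lower and 0.327% were higher over all compounds, and 43 had an unadjusted p below 0.05. The smallest p belonged in BT-20 to sgHSF1 with Bendamustine (-0.24 ± 0.07 on the log2 scale, adjusted p = 0.0627, limma), and to sgNFE2L2 with Bendamustine (0.28 ± 0.08) and Temozolomide (0.28 ± 0.08). Of the 43 tests, 12 were with Bendamustine and 10 with Temozolomide. Both compounds lay in the first plate column and had many reads in barcode pairs that were never made. With the swapped reads taken off, no sgRNA test of the members passed either. The single sgRNA values in that setting are not given here. Of the 43 tests with an unadjusted p below 0.05, 22 were lower and 21 were higher. The share of such tests over all compounds is not given here. Whether 43 for the members, 12 for Bendamustine or 10 for Temozolomide is more than for other compounds was therefore not tested, and no conclusion is drawn from these counts. At 10000 nM, Chlorambucil left all 12 sgRNA populations of BT-20, HCC-38, MDA-MB-231 and SKBR3 and all 10 of ZR-75-1 below 100%. With KU55933 the populations of SKBR3 ranged from 44.5% (sgERN1) to 68.7% (sgATG7).

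By the criteria of the study's methods, an sgNT level that ended below 90% and at least 25 points under that of the lowest dose, 9 of 45 combinations of member and line counted as cytotoxic, against 56.3% over all compounds. These were Lomeguatrib in ZR-75-1 and MDA-MB-231, Veliparib in ZR-75-1 and SKBR3, Dacarbazine in MDA-MB-231, and both Chlorambucil and KU55933 in SKBR3 and MDA-MB-231. Within them, the methods' thresholds on the area under the curve and on the unadjusted p against sgNT gave 7 smaller and 3 larger areas in 95 sgRNA comparisons, against 1.16% smaller and 2.40% larger over all compounds, and the lowest Benjamini-Hochberg adjusted p was 0.253. All 7 smaller areas were in MDA-MB-231 with Lomeguatrib and share the same 2 sgNT curves. There sgNT itself held 101.2% to 132.9% at 10 to 1000 nM, where the mean over the sgRNAs of the line held 95.2% to 113.2%, so that the common direction of the 7 is not independent evidence.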

How the data were processed

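Barcodes were amplified from lysates and sequenced, and per the labels reads were handled with bcl2fastq. The authors deposited read counts of each pair of line barcode and sgRNA per well, and relative cell numbers, a ratio in percent of the median DMSO well, interpolated from the log10 counts of 5 293T standards. The rebuilt curve matched 83520 deposited values within 5.32e-05 on the log2 scale, so DMSO wells were computed in the same way. Depth was 155067 to 1596040 reads per member or DMSO well. The deposited comparisons of the authors were not used. The mean over sgRNAs of a line (sgHSF1 and sgKEAP1 left out in ZR-75-1, as in the methods) was fitted with limma 3.58.1 in R 4.3.3 over 1488 wells (174 compounds and DMSO), and two-sided p-values were Benjamini-Hochberg adjusted over all compounds, or over the tests named for pairs, classes and compounds of the same target. Wells are the replicates, called independent in the methods, and p-values measure the spread between them. Each plate held 1 dose level and 1 replicate number, so replicate numbers mark plates. Paired plates differed by -0.09 to 0.08 on the log2 scale, and the replicate number as a block changed no call. Plate positions came from the sample order, which matched the titles of 96 of 96 DMSO wells. Swapped reads were estimated by assuming that barcodes recombine in proportion to their totals, at the rate of the pairs that were never made. Alternatives were sgNT alone, the median of sgRNAs, all 12 sgRNAs in ZR-75-1, the percent scale, fewer wells, replicate and plate blocks, reads over standard reads, leaving out a replicate, an exact permutation test and edgeR 4.0.16. On data simulated for the 3480 tests against DMSO, 84.5% of 200 changes of -0.5 were recovered with 4.52% of calls false, and 100% of changes of -1 with 7.83% false. On data simulated for the 10092 sgRNA tests, 96% of 200 changes of -0.5 were recovered with 5.42% of calls false. The simulated wells had the spread of the DMSO wells and no plate, column or swapped-read effect. In MDA-MB-231, for example, the SD was 0.1502 between DMSO wells and 0.1855 in the fit to all wells, so these rates may not hold for the real calls. The sgRNA test covered 522 combinations for the members. Named are all members in each line, at most 12 differences of each kind at 10000 nM that passed, by size, otherwise the 3 largest, and the 3 sgRNAs of smallest p. Other pairs, lines and lower doses were named after their values were seen. The members and lists were chosen with earlier results of these data known.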

Additional observations from a re-analysis of the deposited data

Results flagged for a closer look

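Under the same compound at 10000 nM, a line differed from the other lines of the well past the threshold in 12 combinations. On the log2 scale these were -0.24 in SKBR3, 0.23 in MDA-MB-231 and 0.26 in HCC-38 for Bendamustine, 0.33 in BT-20 and -0.19 in MDA-MB-231 for Chlorambucil, and -0.30 in MDA-MB-231 for Dacarbazine. They were -0.50 in SKBR3, 0.34 in BT-20 and 0.21 in HCC-38 for KU55933, and 0.47 in HCC-38, 0.23 in BT-20 and -0.41 in MDA-MB-231 for Temozolomide.

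Reads in barcode pairs that were never made, which enter no comparison of the values as deposited and set the estimate of swapped reads, had a median share of 2.47% in the wells of Bendamustine, 2.13% in those of Temozolomide and 2.18% in those of Veliparib, each above the highest DMSO well (0.924%). Over all compounds the median share was 1.91% in the first column of the plates and 0.233% in the other columns. At the lowest dose, which was below 10 nM for some compounds, those of the first column had a median relative cell number of 118.7% in HCC-38 and 107.8% in MDA-MB-231. The others had 96.02% and 96.8%.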

How the results depend on the processing

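The numbers of calls were 22 against DMSO, 9 between highest and lowest dose, 12 for line-specific responses, 47 for pairs of members, 6 for classes, 4 for compounds of the same target and 0 for sgRNAs. With sgNT alone they were 5, 1, 2, 6, 2 and 0 in this order up to the same target, and the change of Chlorambucil in ZR-75-1 between doses turned to 0.11. On the percent scale 16 dose, 78 pair, 21 class and 2 same-target calls were made. A fit to members, their relatives and DMSO gave 12 class, 7 same-target and 5 sgRNA calls, and reads over standard reads gave 75 pair, 16 class, 11 same-target and 5 sgRNA calls. With swapped reads taken off, chosen after seeing the data, 4 pair and 2 class calls were made, and against DMSO Bendamustine turned to -0.0500 in HCC-38 and -0.00951 in MDA-MB-231 and Temozolomide to -0.0226 in BT-20. Relative to the lowest dose, 0 pair calls and 7 line-specific calls remained, the latter alternative chosen after seeing the data. The exact permutation test gave 11 calls against DMSO and edgeR gave 18, both adjusted over the 180 member tests alone. The methods' t-test gave 10 for sgRNAs. Without replicate 1 or 2, calls ranged from 11 to 15 against DMSO, 6 to 8 between doses, 6 to 11 for lines, 6 to 33 for pairs, 1 to 2 for classes, 0 to 4 for the same target and 0 to 2 for sgRNAs. The replicate block, a factor of 2 levels over all plates, gave 22, 9, 12, 47, 6, 4 and 0 calls, the same ones. With plate as a block, 3 of 38 single values lost the threshold with their direction kept. Among single values, 40 against DMSO, 17 between doses and 33 for lines lost the threshold over all alternatives with their direction kept, 4 turned as given above, and the others kept direction and threshold. The cause of these changes was not tested. Only 2 wells per dose limit the precision, and intervals cover the spread between wells.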
